A study of Mus musculus with 18 samples.

Results

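The genes described here are the 10 enzymes of fatty acid synthesis and desaturation *Acly*, *Acaca*, *Acacb*, *Fasn*, *Scd1*, *Scd2*, *Elovl5*, *Elovl6*, *Fads1* and *Fads2*, out of 52636 genes counted in RNA-seq of mouse retinal pigment epithelium (RPE). They were chosen by name for their place in the pathway and not by a rule on their values, although earlier results of these data were known. All 10 were counted in every library, with 270 to 12065 reads per library, and all 10 passed the filter on low counts in every comparison. The study asked how SREBP2 and LRP2 in the RPE control the size of the postnatal eye.

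The data comprised 18 libraries in 6 groups of 3, each from the RPE of both eyes of 1 C57BL/6 mouse collected on postnatal day 14. Uninjected mice formed the first group. The other 5 groups were injected under the retina on the day of birth with AAV8-Best1-GFP (GFP), AAV8-Best1-nSrebp2 (nSREBP2), AAV8-Best1-LacZ sh (ctrl sh), AAV8-Best1-*Lrp2* sh1 (*Lrp2* sh1) or AAV8-Best1-*Lrp2* sh2 (*Lrp2* sh2). The carrier was a serotype 8 adeno-associated virus, and the *Best1* promoter drove expression in RPE cells. nSREBP2 is the truncated, nuclear and constantly active form of SREBP2, with GFP as its control, and the control hairpin targets LacZ, a bacterial gene. The RPE was dissociated from the eyecup after the retina was removed, so the libraries also held RNA of neighboring cells. In such samples a change in the number of cells of a type and a change of RNA per cell cannot be told apart.

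Fatty acids are built in the cytosol from acetyl-CoA, which ATP citrate lyase (*Acly*) splits from citrate. Acetyl-CoA carboxylase (*Acaca* in the cytosol, *Acacb* at the mitochondrial surface) makes malonyl-CoA, and fatty acid synthase (*Fasn*) joins these units into palmitate. Elongases (*Elovl6* for saturated and monounsaturated chains, *Elovl5* for polyunsaturated ones) lengthen the chain, the stearoyl-CoA desaturases (*Scd1*, *Scd2*) set the first double bond, and the delta-5 and delta-6 desaturases (*Fads1*, *Fads2*) make the polyunsaturated fatty acids that photoreceptor membranes are rich in. The pathway is classically driven by SREBP1c, a product of *Srebf1*, whereas SREBP2, the product of *Srebf2*, favors the cholesterol pathway, and both proteins bind sterol regulatory elements (SREs) and E-boxes.

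Promoter sequence was held for 7 of the 10 genes, as RefSeq windows of GRCm38.p6 that run from 250 bases before the annotated start to 50 bases after it. No window was held for *Scd1*, *Scd2* or *Fads1*. Both strands were searched for the SRE core TCACNCCAC, the SRE-like sequence GTGGGG, the E-box CACGTG and the CCAAT box, to which NF-Y, a partner of SREBPs, binds. The SRE core can hold the SRE-like letters within it. The core was in none of the 7 windows and in 1.24% of all 32851 windows. The SRE-like sequence was in 1 of 7 windows (*Acacb*, first base at -75 from the start) against 28.7% of all windows, and the E-box was in 1 of 7 (*Elovl5*, at -161) against 7.15%. The CCAAT box was in 4 of 7 windows against 37.4% of all windows: at -90, -62 and -59 in *Fasn*, the last pair overlapping, at -87 in *Acacb*, at -71 and -17 in *Elovl5*, and at 38 after the start in *Acly*. A match of letters is a description of the window and not a binding site. The 250 bases before the start are shown for *Fasn* and *Acly*, which rose with nSREBP2, for *Acacb*, which did not pass the test with nSREBP2, and for *Elovl5*, which fell with *Lrp2* sh2. They are written 5' to 3' on the strand of the gene, and capitals mark the matches on either strand.
*Fasn* (chr11:120824548-120824797, minus strand): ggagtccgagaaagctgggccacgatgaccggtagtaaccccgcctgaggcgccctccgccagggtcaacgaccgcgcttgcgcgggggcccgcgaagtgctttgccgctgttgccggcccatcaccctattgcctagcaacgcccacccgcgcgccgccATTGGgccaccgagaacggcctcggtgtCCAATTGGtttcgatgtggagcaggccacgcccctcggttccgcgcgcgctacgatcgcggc
*Acly* (chr11:100528001-100528250, minus strand): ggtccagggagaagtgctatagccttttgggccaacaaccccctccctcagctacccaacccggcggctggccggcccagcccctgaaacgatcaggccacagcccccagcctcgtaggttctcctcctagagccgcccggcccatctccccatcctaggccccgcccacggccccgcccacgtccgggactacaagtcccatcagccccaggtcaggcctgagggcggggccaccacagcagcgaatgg
*Acacb* (chr5:114165268-114165517, plus strand): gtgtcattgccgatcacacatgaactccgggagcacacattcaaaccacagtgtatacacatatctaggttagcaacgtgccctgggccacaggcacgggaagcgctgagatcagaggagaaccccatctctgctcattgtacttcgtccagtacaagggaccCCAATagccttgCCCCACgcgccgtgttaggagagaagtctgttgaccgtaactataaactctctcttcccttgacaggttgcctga
*Elovl5* (chr9:77917115-77917364, plus strand): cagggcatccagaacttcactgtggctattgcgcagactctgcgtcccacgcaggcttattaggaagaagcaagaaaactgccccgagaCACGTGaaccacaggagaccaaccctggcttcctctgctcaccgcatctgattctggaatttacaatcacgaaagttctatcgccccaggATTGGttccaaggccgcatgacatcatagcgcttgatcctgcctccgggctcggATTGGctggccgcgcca

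In GENCODE M21 on GRCm38 the genes are protein-coding and lie on 5 chromosomes. *Acly* (chr11:100476353-100528000), *Acaca* (chr11:84129672-84401651) and *Fasn* (chr11:120805846-120824547) share a chromosome. *Scd2* (chr19:44293674-44306864) and *Scd1* (chr19:44394455-44407879) lie near each other, with *Scd4* (chr19:44333092-44346743) between them. *Fads2* (chr19:10062765-10101746) and *Fads1* (chr19:10182888-10196877) lie on the same chromosome. *Acacb* is at chr5:114146535-114250761, and its RefSeq window lies inside the GENCODE gene, as does that of *Acaca* (chr11:84195188-84195487). *Elovl5* is at chr9:77917364-77984519 and *Elovl6* at chr3:129532355-129638495. *Scd1* and *Scd2* are close paralogs, so reads that match both can have been lost or placed wrongly. *Scd2* shares 61 exon bases with the microRNA gene Mir5114, and *Elovl6* shares 34 with Gm35986 on the opposite strand.

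Depth was 8921885 to 13696934 reads counted on genes per library. Levels are CPM, each gene's share of a library's counts scaled with TMM factors, and "rose" and "fell" are used of genes with an adjusted *P* under 0.05 in edgeR's quasi-likelihood test with Benjamini-Hochberg adjustment. *Lrp2*, the target of the hairpins, measured 87.6 to 166 CPM with ctrl sh, 29.8 to 42.8 CPM with *Lrp2* sh1 and 34.6 to 43.6 CPM with *Lrp2* sh2. Neither hairpin group overlapped with ctrl sh. *Srebf2* measured 82.9, 112 and 107 CPM in the GFP libraries and 233, 209 and 208 CPM in the nSREBP2 libraries. The vector carries part of this gene, so its transcript and the native one cannot be told apart in the counts. By *Xist* and Y-linked genes, the 3 nSREBP2 libraries were from males and the 3 GFP libraries from females, *Lrp2* sh2 replicates 2 and 3 and uninjected replicate 3 were from males, and all others were from females. Sex and vector therefore cannot be told apart in nSREBP2 versus GFP alone. For the enzymes, values with sex as a covariate over all 18 libraries are given where they change a call. Apart from *Srebf1* between the hairpins, no such values are given for other genes or for cell markers. The calls of those genes and markers with nSREBP2 are therefore not separated from sex. All 12 RPE markers were counted in every group, but their levels differed between groups. Their median log2 fold change was -2.51 in GFP versus uninjected and -0.97 in ctrl sh versus uninjected. It was -0.05 in nSREBP2 versus GFP, and against ctrl sh it was -0.31 with *Lrp2* sh1 and -1.22 with *Lrp2* sh2.

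Without a vector, the pathway was measured at a wide range of levels. Per kilobase of exon, *Scd2* was the most abundant of the 10 genes in uninjected RPE, at 88.9 ± 7.47 CPM per kb (SD, n = 3), followed by *Elovl5* at 30.9 ± 1.11 and *Acly* at 26.8 ± 1.26. *Fads1* (23.5 ± 3.97), *Fads2* (20.9 ± 4.56) and *Fasn* (19.2 ± 1.38) followed with overlapping spreads, and *Scd1* stood at 14.99 ± 0.357. *Acaca* (7.18 ± 0.260), *Acacb* (6.45 ± 0.440) and *Elovl6* (6.01 ± 1.49) were the lowest. *Scd2*, the isoform known from brain and skin, thus stood above *Scd1*, the isoform known from liver and fat, with a *Scd1* to *Scd2* ratio per kb of 0.169 ± 0.0103. The length used is the union of all annotated exons, which lowers the level of genes with many isoforms, such as *Acaca* at 17.074 kb.

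**Figure D1:**
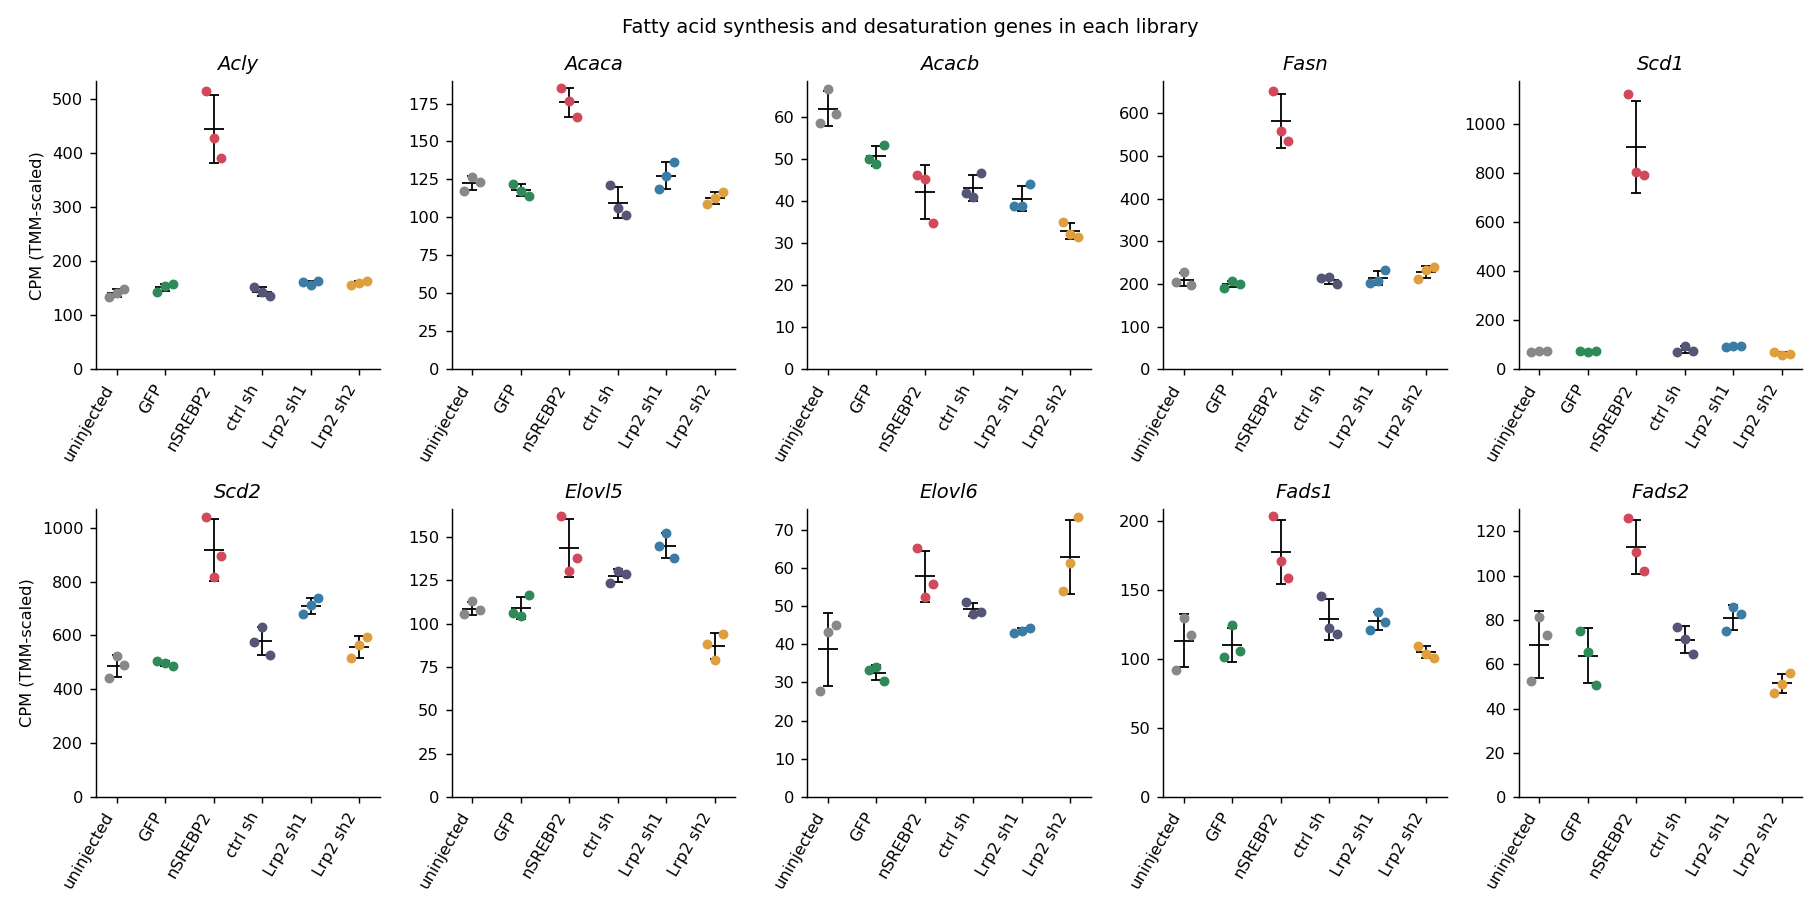
Level of the 10 genes in CPM scaled with TMM factors (vertical axes, each from 0) in the 3 libraries of each of the 6 groups (points, replicates 1 to 3 from left to right), with the mean and SD in black. The nSREBP2 points stand above those of all other groups for *Acly*, *Acaca*, *Fasn*, *Scd1*, *Scd2*, *Fads1* and *Fads2*, *Acacb* is highest in the uninjected libraries, and *Elovl6* reaches its highest value, 73.2 CPM, with *Lrp2* sh2.

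With nSREBP2, 9 of the 10 genes rose against GFP, in every step of the pathway from citrate to polyunsaturated chains. Of all 17927 genes tested, 12.6% rose. *Scd1* changed most, by 12.3-fold, *Acly* and *Fasn* each rose by 2.9-fold, and *Scd2*, *Elovl6*, *Fads2*, *Fads1*, *Acaca* and *Elovl5* rose by 1.85-fold to 1.31-fold. *Acacb* was the exception. The median log2 fold change (log2FC) of the 10 genes was 0.83, against -0.02 over all genes tested. With the study's further requirement of a log2FC above 1, 3 of the 10 genes (*Acly*, *Fasn* and *Scd1*) were called differentially expressed, against 4.71% of all genes.

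Of the enzymes that make palmitate, *Acly* measured 144, 153 and 157 CPM in the GFP libraries and 514, 428 and 391 CPM in the nSREBP2 libraries. The lowest nSREBP2 library stood far above the highest GFP library, with a log2FC of 1.55 (SE 0.10, adjusted *P* = 1.14e-05). *Fasn* measured 192, 208 and 201 CPM with GFP and 652, 558 and 534 CPM with nSREBP2, a log2FC of 1.54 (SE 0.09, adjusted *P* = 4.87e-06). These genes flank the carboxylase step, where the change was smaller. *Acaca* measured 122, 117 and 114 CPM with GFP and 185, 176 and 166 CPM with nSREBP2, again without overlap (log2FC 0.58, SE 0.07, adjusted *P* = 0.000316). Its mitochondrial counterpart *Acacb*, whose malonyl-CoA restrains the entry of fatty acids into mitochondria, measured 50.2, 48.9 and 53.5 CPM with GFP and 46.4, 45.4 and 35.0 CPM with nSREBP2. Here the nSREBP2 libraries lay below those with GFP, but the test was not passed (log2FC -0.27, 95% confidence interval -0.51 to -0.03, adjusted *P* = 0.106). With all 18 libraries in one fit the adjusted *P* was 0.0494, and against the uninjected libraries *Acacb* was lower by -0.56 on the log2 scale (adjusted *P* = 0.00729). The *Acaca* to *Acacb* ratio per kb was 1.31 ± 0.0914 with GFP and 2.38 ± 0.266 with nSREBP2.

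The stearoyl-CoA desaturases, which turn stearate into oleate, held the largest response. *Scd1* measured 73.2, 72.1 and 75.9 CPM with GFP and 1122, 805 and 793 CPM with nSREBP2 (log2FC 3.62, SE 0.14, adjusted *P* = 6.13e-07). *Scd2* measured 503, 499 and 485 CPM with GFP and 1041, 816 and 894 CPM with nSREBP2 (log2FC 0.89, SE 0.09, adjusted *P* = 0.00014). The minor isoform therefore came level with the major one. The *Scd1* to *Scd2* ratio per kb was 0.166 ± 0.00738 with GFP, 1.10 ± 0.107 with nSREBP2, and between 0.116 and 0.180 in each of the other libraries outside these groups. Because the genes are paralogs, the ratio depends on how reads common to both were counted.

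The elongases and polyunsaturated desaturases rose by 0.39 to 0.83 on the log2 scale. *Elovl6*, which takes palmitate to stearate, measured 33.2, 34.1 and 30.3 CPM with GFP and 65.3, 52.4 and 55.9 CPM with nSREBP2 (log2FC 0.83, SE 0.09, adjusted *P* = 0.000281). *Fads2*, the delta-6 desaturase, measured 75.2, 65.5 and 50.5 CPM with GFP and 126, 111 and 102 CPM with nSREBP2 (log2FC 0.83, SE 0.14, adjusted *P* = 0.00222). Neither overlapped between the groups, but both calls were lost with sex as a covariate, at 0.50 (adjusted *P* = 0.0878) for *Elovl6* and 0.67 (adjusted *P* = 0.0589) for *Fads2*. *Fads1*, the delta-5 desaturase, measured 101, 124 and 105 CPM with GFP and 203, 171 and 158 CPM with nSREBP2 (log2FC 0.68, SE 0.11, adjusted *P* = 0.00173). *Elovl5*, the elongase between these desaturase steps, measured 106, 105 and 117 CPM with GFP and 162, 130.2 and 138 CPM with nSREBP2 (log2FC 0.39, SE 0.09, adjusted *P* = 0.0126). This smallest rise lost its call without GFP replicate 2 (adjusted *P* = 0.0575). The *Fads1* to *Fads2* ratio per kb was 1.22 ± 0.264 with GFP and 1.07 ± 0.0252 with nSREBP2, a difference smaller than the spread with GFP.

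Among the nSREBP2 libraries, replicate 1 was the highest for all 10 genes, *Acacb* included, and replicate 3 was the lowest for 7 of 10. *Srebf2* was also highest in replicate 1, and so were the summed markers of RPE, at 3649 CPM in replicate 1 and 2706 CPM in replicate 3. Without nSREBP2 replicate 1 or any other single library, 8 or 9 of the 10 genes rose and 3 were called differentially expressed. Markers of other cells moved in this comparison too. All 8 fibroblast markers rose, with sums of 34492 to 43992 CPM with GFP and 71833 to 85750 CPM with nSREBP2, and all 8 macrophage markers rose, from sums of 259 to 309 CPM to 498 to 539.7 CPM. Endothelial markers fell for 6 of 8. Of 12 rod photoreceptor markers, 2 rose and all 12 had a positive log2FC, with a median of 1.22 and sums of 42.2, 120.3 and 328 CPM with GFP and 261 to 369 CPM with nSREBP2. Of 9 adipocyte markers, 2 were counted highly enough to be tested and neither passed, and the sums were 16.3 to 22.1 CPM with GFP and 17.9 to 22.2 CPM with nSREBP2. Of 12 RPE markers, 2 rose and 3 fell, with log2FCs from -1.692 to 1.745. Their sums ran from 3328 to 3579 CPM with GFP and from 2706 to 3649 CPM with nSREBP2. The part of these cells in the changes of the 10 enzymes was not tested.

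**Figure D2:**
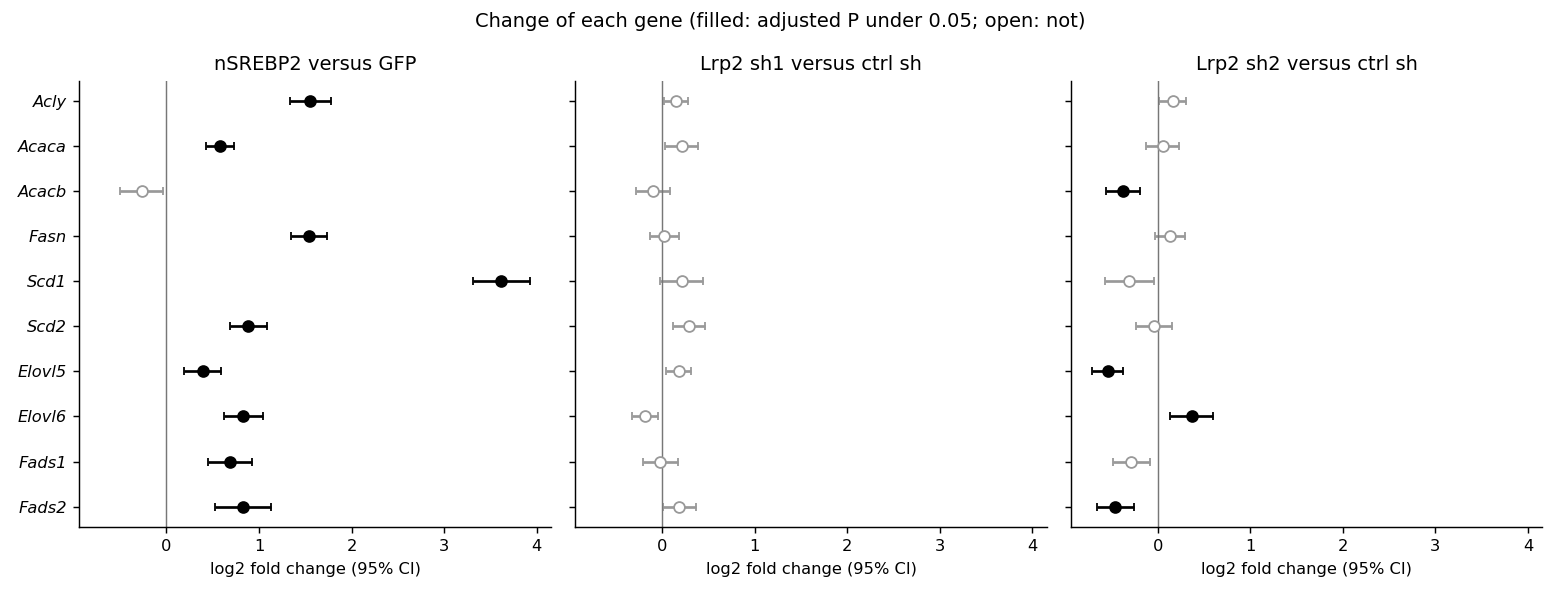
Log2 fold change (horizontal axis) of the 10 genes in the 3 comparisons of the study, with 95% confidence intervals and with filled points for an adjusted *P* under 0.05. With nSREBP2, 9 points are filled and lie right of 0, with *Scd1* at 3.62, no point is filled with *Lrp2* sh1, and with *Lrp2* sh2 *Elovl5*, *Fads2* and *Acacb* lie left of 0 and *Elovl6* lies right of it.

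*Lrp2* sh1 moved the pathway little. In edgeR 0 of the 10 genes passed the test against ctrl sh, whereas 5.33% of all 17801 genes passed in either direction. DESeq2 called 1 (*Scd2*). An unadjusted *P* under 0.05 was found in edgeR for 6 of the 10 genes and for 3506 of all 17801. The log2FCs ran from -0.18 for *Elovl6* to 0.29 for *Scd2*. *Scd2* measured 577, 632 and 526 CPM with ctrl sh and 678, 712 and 739.9 CPM with *Lrp2* sh1, without overlap (95% confidence interval of the log2FC 0.12 to 0.46, adjusted *P* = 0.0647). *Elovl6* measured 51.1, 47.8 and 48.4 CPM with ctrl sh and 43.0, 43.4 and 44.2 CPM with *Lrp2* sh1, also without overlap (interval -0.32 to -0.04, adjusted *P* = 0.138). *Fasn* and *Fads1* had intervals of -0.14 to 0.18 and -0.21 to 0.17, so a change the size of that with nSREBP2 lay outside them. Single control libraries decided some of these results. Without ctrl sh replicate 2, the highest ctrl sh library for *Scd1* and *Scd2*, *Scd1* passed at 0.36 (adjusted *P* = 0.0258) and *Scd2* at 0.36 (adjusted *P* = 0.0397). Without ctrl sh replicate 1, *Acaca* passed at 0.29 (adjusted *P* = 0.034). At most 1 gene of each marker list for other cell types passed in this comparison. The ctrl sh libraries were nevertheless uneven in Schwann cell markers, with sums of 1042, 1622 and 695 CPM in replicates 1 to 3. With *Lrp2* sh1 these sums were 746 to 781 CPM. The part of Schwann cells in these results was not tested.

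*Lrp2* sh2 changed 4 of the 10 genes, and *Acly*, *Fasn* and *Scd1* were not among them. In all, 3 fell and 1 rose, where 9.48% of all 18089 genes fell and 8.59% rose, and the median log2FC was -0.16 against 0.01 over all genes. None reached a log2FC of 1 in size. *Elovl5* measured 123, 131 and 129 CPM with ctrl sh and 88.2, 79.0 and 93.9 CPM with *Lrp2* sh2, without overlap (log2FC -0.54, SE 0.08, adjusted *P* = 0.00142). *Fads2* measured 77.0, 71.5 and 64.7 CPM with ctrl sh and 47.1, 50.8 and 56.0 CPM with *Lrp2* sh2, again without overlap (log2FC -0.46, SE 0.09, adjusted *P* = 0.00725). Both act on polyunsaturated chains. *Fads1*, the third such enzyme, measured 146, 122 and 118 CPM with ctrl sh and 109, 103 and 101 CPM with *Lrp2* sh2, and did not pass in edgeR (log2FC -0.28, SE 0.09, adjusted *P* = 0.0519). It passed in 5 of the 14 alternative fits, among them DESeq2 (adjusted *P* = 0.0322) and the fit without a filter on low counts (adjusted *P* = 0.0201).

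*Acacb* measured 42.0, 41.0 and 46.7 CPM with ctrl sh and 35.1, 32.3 and 31.5 CPM with *Lrp2* sh2 (log2FC -0.38, SE 0.08, adjusted *P* = 0.0117), and its call was lost without ctrl sh replicate 3 (adjusted *P* = 0.0554). *Elovl6* went the other way, at 51.1, 47.8 and 48.4 CPM with ctrl sh and 54.0, 61.3 and 73.2 CPM with *Lrp2* sh2 (log2FC 0.37, SE 0.10, adjusted *P* = 0.0363). This rise lost its call in 5 of the 6 fits that left out a library, with adjusted *P* of 0.058 to 0.116, and stayed only without *Lrp2* sh2 replicate 1. With sex as a covariate *Elovl5* alone kept its call, and *Elovl6* dropped to 0.13 (adjusted *P* = 0.638). The enzymes that had changed most with nSREBP2 stayed near the control, *Fasn* with an interval of -0.03 to 0.29, *Acly* with 0.02 to 0.30 and *Scd1* with -0.57 to -0.04 on the log2 scale, and none of the 3 passed. Rod photoreceptor markers rose for 10 of 12 in this comparison, with sums of 44.6 to 66.8 CPM with ctrl sh and 86.2 to 441 CPM with *Lrp2* sh2, RPE markers fell for 6 of 12 (sums of 4333 to 6175 CPM and of 2622 to 2942 CPM), and endothelial markers fell for 7 of 8. *Lrp2* sh2 replicate 1 held the highest rod sum, and *Elovl5* measured 79.0 and 93.9 CPM in the other *Lrp2* sh2 libraries, against 88.2 CPM in that one. The part of these cells in the results was not tested.

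The hairpins differed from each other. With *Lrp2* sh2, 6 of the 10 genes were lower than with *Lrp2* sh1 and 1 was higher, against 12.3% and 10.2% of all 17975 genes. *Scd1* measured 90.1, 94.0 and 96.6 CPM with *Lrp2* sh1 and 71.6, 60.4 and 61.4 CPM with *Lrp2* sh2, and *Fads2* measured 74.9, 85.9 and 82.5 CPM and 47.1, 50.8 and 56.0 CPM. Neither gene overlapped between the hairpins, although *Lrp2* itself was at similar levels, with a log2FC of 0.08 (95% confidence interval -0.22 to 0.37). *Srebf1* showed the widest gap. It measured 158, 155 and 153 CPM with ctrl sh, 213, 220.2 and 239 CPM with *Lrp2* sh1 and 106, 99.5 and 102 CPM with *Lrp2* sh2. It thus rose with one hairpin (log2FC 0.52, SE 0.06, adjusted *P* = 0.00184) and fell with the other (log2FC -0.59, SE 0.06, adjusted *P* = 0.000301). In the uninjected libraries *Srebf1* measured 88.0, 119 and 106 CPM, close to *Lrp2* sh2, and against these libraries the fall with *Lrp2* sh2 was no longer seen (log2FC -0.03, adjusted *P* = 0.885). With nSREBP2, *Srebf1* measured 139.6, 115 and 125 CPM against 117, 117 and 109.5 CPM with GFP, and the test was not passed (log2FC 0.14, 95% confidence interval -0.04 to 0.32, adjusted *P* = 0.252).

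**Figure D3:**
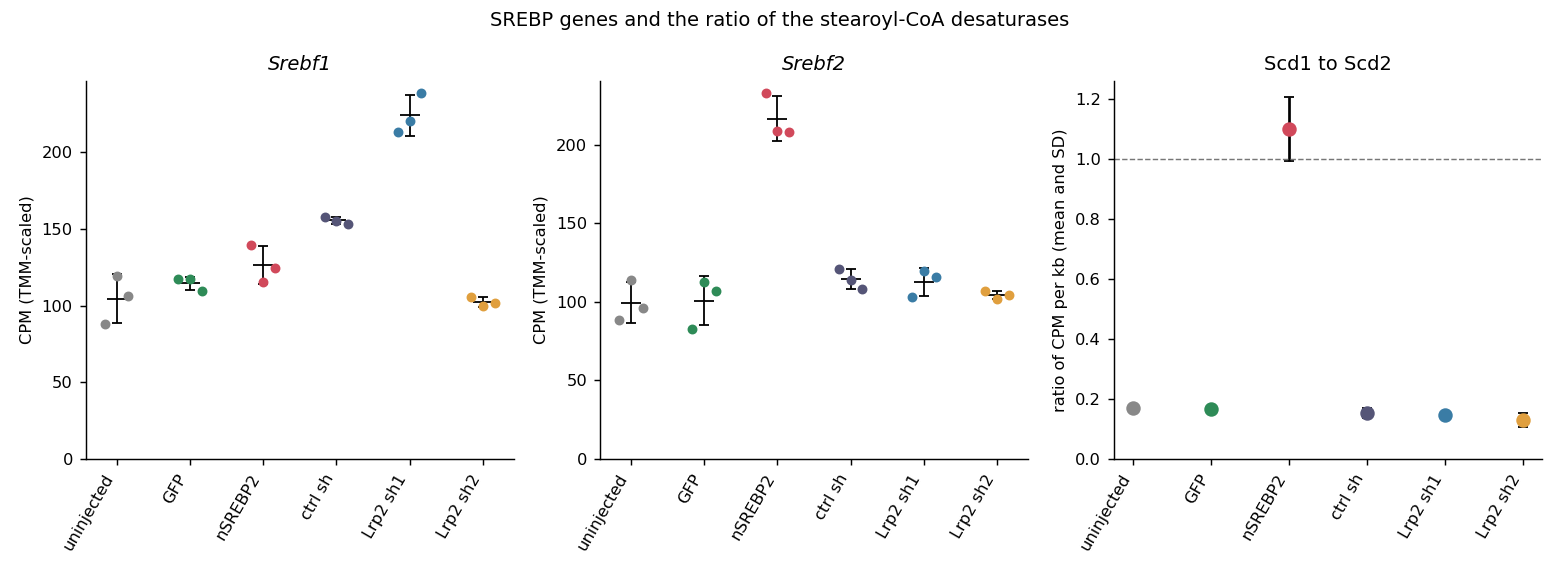
*Srebf1* and *Srebf2* in CPM scaled with TMM factors in each library (points, with mean and SD), and the ratio of *Scd1* to *Scd2* in CPM per kb (mean and SD of 3 libraries, dashed line at a ratio of 1). *Srebf2* is highest with nSREBP2 and *Srebf1* with *Lrp2* sh1, and the ratio is 1.10 with nSREBP2 and below 0.2 in every other group.

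The nSREBP2 and hairpin effects were compared directly with an interaction term over all 18 libraries, each effect against its own control. Against the *Lrp2* sh1 effect, 7 of the 10 genes passed, all with the larger value for nSREBP2, where 9.75% of all 19744 genes passed in either direction. The differences of log2FC were 3.40 for *Scd1*, 1.51 for *Fasn*, 1.39 for *Acly*, 1.001 for *Elovl6*, 0.70 for *Fads1*, 0.59 for *Scd2* and 0.36 for *Acaca*. The *Acaca* difference was lost in 10 of the 16 alternative fits. With sex as a covariate 3 of the 10 passed. Against the *Lrp2* sh2 effect, 8 of the 10 passed in the same direction, against 5.63% of all genes. These were the 7 above other than *Elovl6*, with *Elovl5* (0.93) and *Fads2* (1.29) in addition. *Acacb* passed in neither contrast, with intervals of -0.47 to 0.10 and of -0.18 to 0.38.

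The vectors alone left most of the pathway near the uninjected level. In GFP versus uninjected, edgeR called 0 of the 10 genes, against 2.48% of all 17837 genes, and DESeq2 called 0. An unadjusted *P* under 0.05 was found in edgeR for 1 of the 10 (*Acacb*) and for 3529 of all 17837. In ctrl sh versus uninjected, *Acacb* alone passed, and it fell by 0.53 on the log2 scale (SE 0.09, adjusted *P* = 0.0146), against 3.37% of all 17822 genes that fell. *Acacb* had measured 58.8, 66.9 and 60.7 CPM in the uninjected libraries, above every injected library. The call was lost without ctrl sh replicate 2 (adjusted *P* = 0.0815). RPE markers summed to 4305 to 9784 CPM without a vector, 3328 to 3579 CPM with GFP and 4333 to 6175 CPM with ctrl sh. Against the uninjected libraries 7 of 12 fell with GFP in edgeR, whereas with ctrl sh edgeR called 0 of 12 and DESeq2 called 1. With ctrl sh, an unadjusted *P* under 0.05 was found in edgeR for 6 of the 12 and for 4572 of all 17822 genes. The part of RPE content in the level of *Acacb* was not tested. Between the controls, *Elovl6* was higher with ctrl sh than with GFP, by 0.58 on the log2 scale (SE 0.07, adjusted *P* = 0.00422), and 2.32% of all 18018 genes were higher. Its level thus differed between the control groups, at 30.3 to 34.1 CPM with GFP, 47.8 to 51.1 CPM with ctrl sh and 27.6 to 45.0 CPM without a vector. In ctrl sh versus GFP 4 of 12 RPE markers rose and 0 fell, with a median log2FC of 1.115. The part of RPE content in the level of *Elovl6* was not tested. Uninjected replicate 1 was the lowest uninjected library for 9 of the 10 genes, and its RPE markers summed to 4305 CPM against 8240 and 9784 CPM in the others. Without it, *Elovl6* was lower with GFP than uninjected (log2FC -0.45, adjusted *P* = 0.0333).

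The genes around the enzymes were read from 6 lists, whose counts stand against 12.6% of all genes that rose and 8.47% that fell with nSREBP2, 3.06% and 2.28% with *Lrp2* sh1, and 8.59% and 9.48% with *Lrp2* sh2. Of 12 genes that supply citrate, acetyl-CoA and NADPH, 5 rose with nSREBP2. *Acss2*, which makes acetyl-CoA from acetate, rose from 10.5 to 16.5 CPM to 55.9 to 70.6 CPM (log2FC 2.18, SE 0.15), and *Pgd*, an NADPH-forming enzyme of the pentose phosphate pathway, rose by 0.88 (SE 0.08). With *Lrp2* sh1, 4 of 12 rose, among them the malate dehydrogenase *Mdh1* (0.35) and the malic enzyme *Me2* (0.59). With *Lrp2* sh2, 1 rose and 2 fell, *Mdh1* (-0.65) and the NADPH-forming malic enzyme *Me1* (-0.57). *Mdh1* measured 114.2 to 119.1 CPM with ctrl sh, 65.9 to 86.2 CPM with *Lrp2* sh2 and 65.9 to 106.5 CPM without a vector. *Me1* measured 104.2 to 132.2, 73.0 to 86.1 and 57.9 to 109.7 CPM in the same order, so these falls are relative to ctrl sh. Of 15 lipogenic regulators, 2 rose with nSREBP2, *Srebf2* itself and *Insig1* (2.15, SE 0.16), which holds SREBPs in the endoplasmic reticulum. *Srebf1* alone passed with *Lrp2* sh1, and 5 fell with *Lrp2* sh2, among them *Srebf1* and *Insig1* (-0.54).

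Other genes of elongation and desaturation were split. With nSREBP2, 6 of 16 tested rose and 3 fell. *Hsd17b12*, the reductase of the elongation cycle, rose by 0.997 (SE 0.09), and the elongase *Elovl7* fell from 64.3 to 86.5 CPM to 31.7 to 39.5 CPM (log2FC -1.17, SE 0.13). *Elovl7* also fell against ctrl sh with *Lrp2* sh1 (-0.54, SE 0.12) and with *Lrp2* sh2 (-1.22, SE 0.14). Its level with ctrl sh, 121.7 to 176.6 CPM, stood above the uninjected (48.2 to 99.9 CPM) and GFP libraries. With *Lrp2* sh1 it measured 94.2 to 103.1 CPM and with *Lrp2* sh2 53.8 to 68.7 CPM, so neither hairpin group lay below the uninjected range. *Hacd3*, a dehydratase of the cycle, was the 1 gene of 16 that rose with *Lrp2* sh1 (0.61, SE 0.06). With *Lrp2* sh2, 2 rose and 4 fell, among them *Fads3* (-0.99, SE 0.13), a desaturase gene of the *Fads* family.

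Of 21 genes that activate fatty acids and esterify them, 7 rose and 2 fell with nSREBP2. *Lpcat3*, which puts polyunsaturated chains into phospholipids, rose by 1.11 (SE 0.10), and *Lpin1*, a phosphatidate phosphatase, by 0.90 (SE 0.10). *Lpin1* also rose with *Lrp2* sh1 (0.68, SE 0.08), as did the acyl-CoA synthetase *Acsl3* (0.76, SE 0.06), and these were the 2 of 21 that passed there. *Acsl3* also rose with *Lrp2* sh2 (0.35, SE 0.06). With that hairpin 2 genes rose and 3 fell, among them *Lpin1* (-0.42, SE 0.11) and *Acsl6*, an acyl-CoA synthetase for polyunsaturated fatty acids. *Acsl6* fell from 58.4 to 148.9 CPM to 10.2 to 15.2 CPM (log2FC -2.74, SE 0.35). Its level also differed between the controls, at 85.9 to 280.1 CPM without a vector and 24.5 to 43.4 CPM with GFP.

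Of 21 genes tested of fatty acid oxidation, 7 fell with nSREBP2 and the other 14 did not pass, with a median of -0.25, where 8.47% of all genes fell. Among the 7, *Cpt1a*, the gate of fatty acids into mitochondria, fell by 0.41 (SE 0.09). These 7 are calls of edgeR, and DESeq2 called 4 genes of this list in that comparison. With *Lrp2* sh1, 1 rose (*Acadl*, 0.34) and 1 fell (*Acaa2*, -0.27), and with *Lrp2* sh2, 1 rose and 7 fell, among them *Acadl* (-0.41) and *Ehhadh* (-0.79). All 23 genes of cholesterol synthesis and uptake rose with nSREBP2, by a median of 1.85, among them *Hsd17b7* (2.67, SE 0.12), a late enzyme of the synthesis. In that comparison *Scd1*, at 3.62, lay above this median, and the 9 other enzymes lay below it. With *Lrp2* sh1, 3 of the 23 fell, among them *Hsd17b7* (-0.54) and *Sqle* (-0.46), and with *Lrp2* sh2, 1 fell (*Lss*, -0.50).

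**Figure D4:**
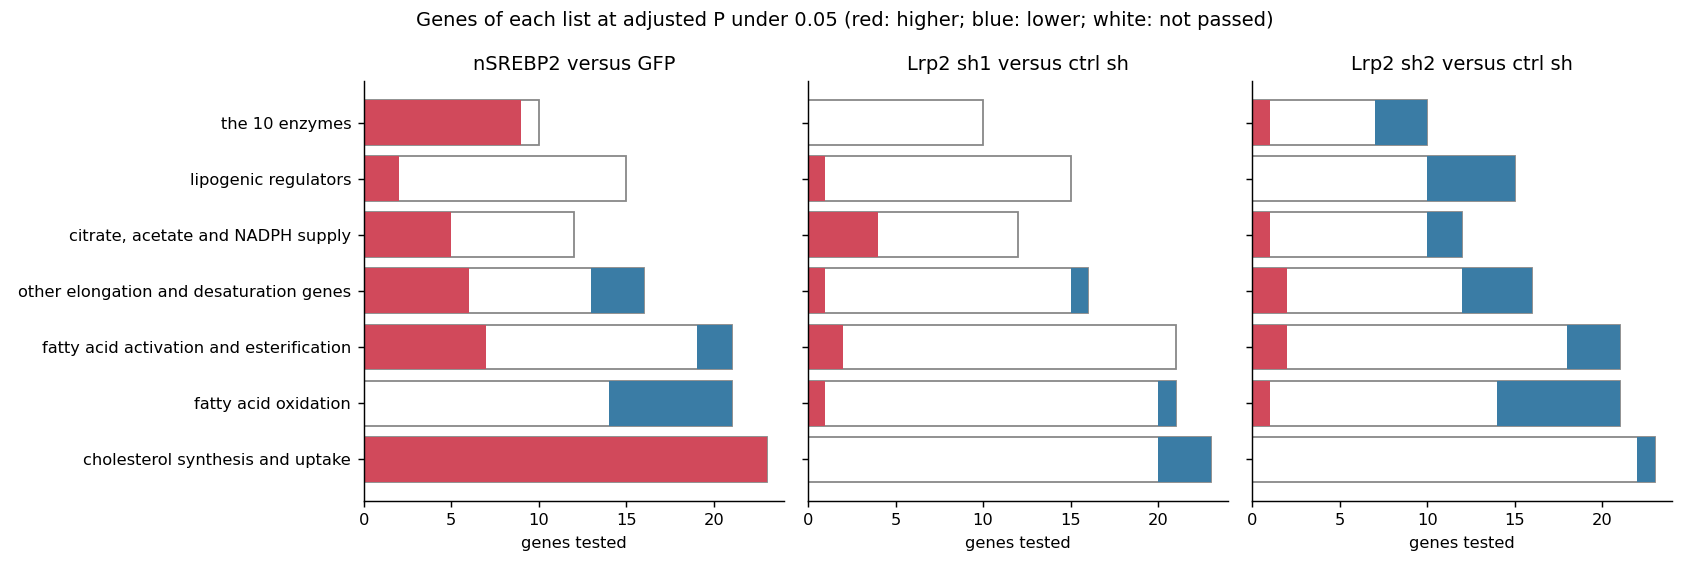
Number of genes tested in each list (bar length, horizontal axis) in the 3 comparisons, with genes that rose in red from the left, genes that fell in blue from the right, and genes that did not pass in white. With nSREBP2 the bars of the 10 enzymes (9 of 10) and of cholesterol synthesis and uptake (23 of 23) are mostly red and 7 of 21 genes of fatty acid oxidation are blue, and with *Lrp2* sh1 most of each bar is white.

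Across the 18 libraries, the levels of *Fasn* and *Scd1* followed each other, *Acly* and several cholesterol genes. Of 15686 genes whose log2 CPM averaged 1 or more, those with the highest Pearson *r* with *Fasn* included *Acly* (0.987), *Acat2* (0.984), *Cyp51* (0.979) and *Scd1* (0.974). With *Scd1* they were *Acly* (0.980), *Lss* (0.979), *Stard4* (0.978), *Insig1* (0.976) and *Fasn* (0.974). These values describe 18 libraries of which 3 stand far from the rest, since all of these genes were highest with nSREBP2.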

How the data were processed

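RNA-seq counts of RPE were taken for 18 mice. Reads were mapped to GRCm38 and counted per gene by the authors with STAR 2.7.3a. The deposited values are raw counts, without normalization. The annotation and the use of strand are not given in the sources used here. Groups and replicate numbers came from the labels, which name the control hairpin LacZ sh.

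edgeR 4.0.16 (R 4.3.3) was run on the 2 groups of each comparison, with filterByExpr, TMM factors, glmQLFit, glmQLFTest and Benjamini-Hochberg adjustment over all genes tested. Each SE is the log2FC divided by the root of its F statistic. The difference of effects was an interaction term over all libraries. Sex was read from *Xist* and Y-linked genes at 10 CPM. Other settings tried were DESeq2 1.42.0, size factors of DESeq2 in edgeR, other filters, one fit of all libraries, the replicate block, sex as a covariate, uninjected controls and leaving out each library. A count of 0 would allow 3 counts, 0.219 to 0.336 CPM, counting error only. Positions came from GENCODE M21. Identifiers matched it for 52403 of 52636 genes, ignoring versions. Scripts were tested on simulated data.

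The genes, lists and alternatives were chosen with earlier results of these data known. Genes named beside the 10 enzymes, *Srebf1*, *Srebf2* and *Lrp2* are, per list and comparison of the study, the 2 with the smallest adjusted *P* among those that passed, and the 5 most correlated with *Fasn* and with *Scd1*. Some results of single genes under this rule are not reported here. *P*-values measure the spread between these mice. No 2 libraries were so alike as to be one.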

Additional observations from a re-analysis of the deposited data

Results flagged for a closer look

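The hairpins against *Lrp2* had different effects on the pathway although they share a target and a control, by the test of *Lrp2* sh2 against *Lrp2* sh1. With *Lrp2* sh2, *Srebf1* was lower by -1.12 on the log2 scale (adjusted *P* = 3.21e-06, lower in 3 of 3 libraries). Among the enzymes, *Elovl5* was lower by -0.72 (adjusted *P* = 0.000155), *Fads2* by -0.65 (adjusted *P* = 0.000412), *Scd1* by -0.52 (adjusted *P* = 0.00113), *Scd2* by -0.33 (adjusted *P* = 0.00661), *Acacb* by -0.29 (adjusted *P* = 0.0272) and *Fads1* by -0.27 (adjusted *P* = 0.0145). *Elovl6* was higher by 0.54 (adjusted *P* = 0.00368). The *Acacb* call was lost with DESeq2 (adjusted *P* = 0.060) and in 5 of the 6 fits that left out a library (adjusted *P* of 0.0533 to 0.0989), and the *Fads1* call was lost in the fit of all 18 libraries (adjusted *P* = 0.120) and without *Lrp2* sh1 replicate 2 (adjusted *P* = 0.0641). Between the same libraries, rod photoreceptor markers were higher with *Lrp2* sh2 for 10 of 12, RPE markers lower for 6 of 12 and endothelial markers lower for 8 of 8, and *Lrp2* sh2 replicates 2 and 3 were from males whereas all *Lrp2* sh1 libraries were from females. Their part in these differences was not tested. With sex as a covariate, *Elovl5* (-0.71), *Fads2* (-0.76) and *Scd2* (-0.40) kept their calls, and *Srebf1* was lower by -1.11 (adjusted *P* = 1.07e-05).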

How the results depend on the processing

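Counted over the enzymes in the 3 comparisons of the study and those that passed in the other comparisons, 707 log2FCs under an alternative kept their direction and side of the threshold, 17 passed it anew, 42 lost it and 11 turned direction. With sex as a covariate, *Elovl6* (adjusted *P* = 0.0878) and *Fads2* (adjusted *P* = 0.0589) lost their calls in nSREBP2 versus GFP. In the same fit 1 enzyme passed in *Lrp2* sh2 versus ctrl sh in place of 4, and 2 in ctrl sh versus uninjected in place of 1. In *Lrp2* sh2 versus *Lrp2* sh1 3 passed in place of 7, and in the difference from *Lrp2* sh1 3 in place of 7. The cause was not tested, and this fit estimates sex from few libraries. In *Lrp2* sh1 versus ctrl sh, DESeq2 and the fit without a filter each called 1 (*Scd2*) in place of 0, and 4 passed against the uninjected libraries (*Acacb* lower, *Elovl5*, *Scd1* and *Scd2* higher). Leaving out each library gave 0 to 2 enzymes for *Lrp2* sh1, 0 to 1 for GFP versus uninjected and 0 to 1 for ctrl sh versus uninjected. Against the uninjected libraries the direction turned, without a call, for *Elovl6* (0.17) and *Fads1* (0.17) with *Lrp2* sh1 and for *Acaca* (-0.11) and *Scd2* (0.20) with *Lrp2* sh2. Leaving out each library turned, also without a call, *Fasn* (-0.0427 to 0.0651) and *Fads1* (-0.0778 to 0.0802) with *Lrp2* sh1 and *Acaca* (-0.00567 to 0.123) and *Scd2* (-0.110 to 0.0291) with *Lrp2* sh2. Same-numbered libraries share no animal. Correlations of their deviations ran from -0.259 to 0.293, and in none of the 7 comparisons were all 3 above 0.1. In ctrl sh versus GFP they were 0.197, 0.0686 and 0.214, and each library correlated best with its own number, as a hint from the data and not from the design. With the replicate block, 0 enzymes passed in ctrl sh versus uninjected in place of 1, 9 in nSREBP2 versus GFP, 0 in *Lrp2* sh1 versus ctrl sh and 4 in *Lrp2* sh2 versus ctrl sh, where *Elovl6* lost its call (adjusted *P* = 0.0667) and *Fads1* gained one (adjusted *P* = 0.0401). In the difference from *Lrp2* sh1, *Acaca* lost its call with the block (adjusted *P* = 0.0507).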
